A study of Mus musculus with 2 samples.

Results

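Neuromesodermal progenitors and caudal epiblast cells were taken from 2 droplet-based single-cell RNA-seq libraries of chimaeric mouse embryos by a rule on their spliced UMIs (unique molecular identifiers, each standing for 1 captured transcript). A cell was taken if it held at least 1 UMI of T and at least 2 of Nkx1-2, fewer than 8 UMIs of Tbx6, Dll3 and Hes7 together, and less than 0.5% of its UMIs on the globins Hba-x, Hbb-bh1 and Hbb-y. The rule found 336 of 18233 cells, which are called the caudal cells from here on. They were 168 of 8981 cells in the tomPOS library (1.87%, exact Clopper-Pearson 95% interval 1.60% to 2.17%) and 168 of 9252 cells in the tomNEG library (1.82%, 1.55% to 2.11%).

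The tomPOS library held tdTomato-positive cells that descend from 1 clone of tdTomato-expressing embryonic stem cells, in which a frameshift of 38 bp in exon 4 had inactivated Gata1. The tomNEG library held tdTomato-negative, wildtype cells of the C57BL/6 host blastocysts that had received this clone. Whole embryos were dissociated, 6 chimaeras were pooled and sorted, and both libraries therefore shared their embryos and their surroundings in the embryo. The tomPOS sample is labelled embryonic day 8.5 and the tomNEG sample 8.6, while the treatment protocol gives 8.5 for the pool. With 1 library per group, genotype, stem cell or host origin, strain, sex and library cannot be told apart, no test was made, and all 95% intervals cover counting error only.

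Neuromesodermal progenitors lie in the caudal epiblast, the epithelium around the node and the remaining primitive streak, and supply both the spinal cord and the paraxial mesoderm as the body axis lengthens. They are recognised by the joint presence of T (Brachyury), a T-box factor of nascent mesoderm, and Sox2, a factor of neural progenitors, and the homeobox gene Nkx1-2 marks the epithelium they belong to. Wnt and FGF ligands made by these cells hold them in place and raise the Cdx factors, which in turn raise the trunk Hox genes, while Cyp26a1 degrades retinoic acid, which would otherwise drive differentiation. Cells that enter the presomitic mesoderm gain Tbx6, Msgn1 and the oscillating Notch genes and lose Sox2, and cells that enter the neural tube lose T and gain Sox1 and Pax6.

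The promoters of 3 genes are printed because T and Nkx1-2 define the caudal cells and because T and Sp5, a Wnt-induced zinc finger factor raised in them, were the 2 promoters with a TCF/LEF motif (CTTTGA), the letters read by the nuclear factors of Wnt signalling, among 18 matched genes. The matched genes are caudal markers and leading genes of the comparison with all other cells. Each sequence is the 250 bases before the RefSeq start on the gene's own strand (build GRCm38.p6), with the motif in capitals on either strand. The T window is chr17:8434173-8434422 on the plus strand with 1 motif at -234, the Sp5 window is chr2:70474673-70474922 on the plus strand with motifs at -204 and -104, and the Nkx1-2 window is chr7:132599638-132599887 on the minus strand with none.
T: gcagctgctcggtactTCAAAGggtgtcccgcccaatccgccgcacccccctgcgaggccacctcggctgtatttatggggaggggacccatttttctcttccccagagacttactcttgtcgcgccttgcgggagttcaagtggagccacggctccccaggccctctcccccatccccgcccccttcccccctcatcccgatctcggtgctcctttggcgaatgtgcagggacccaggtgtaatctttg
Sp5: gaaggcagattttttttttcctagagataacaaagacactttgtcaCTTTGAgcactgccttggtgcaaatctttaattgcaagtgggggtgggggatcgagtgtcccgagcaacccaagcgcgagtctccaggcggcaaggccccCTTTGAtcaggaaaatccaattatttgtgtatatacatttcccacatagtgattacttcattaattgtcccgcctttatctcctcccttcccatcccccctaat
Nkx1-2: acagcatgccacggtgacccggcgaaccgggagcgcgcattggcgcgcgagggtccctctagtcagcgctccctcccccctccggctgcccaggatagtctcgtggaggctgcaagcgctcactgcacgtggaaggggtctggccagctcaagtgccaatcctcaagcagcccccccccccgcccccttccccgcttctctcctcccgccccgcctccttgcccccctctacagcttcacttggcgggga
The motif was in 11.1% of the 18 windows and in 14.05% of all 27025 windows of this length, so its share here was close to that of any promoter. A T-box motif (GGTGTGA, which shares no stretch with the first beyond 3 letters) was in 0 of the 18 windows and in 3.31% of all windows.

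Spliced UMIs summed to 3595015 over the tomPOS and 3411002 over the tomNEG caudal cells, with medians of 18473 (7547 to 59545) and 17877 (4314 to 65017) per cell. All other cells had medians of 17582 and 15976.5, so the caudal cells were somewhat deeper. Scrublet called 11 (6.55%) and 12 (7.14%) of the caudal cells doublets, beside 4.20% and 5.60% of each library, and these were kept. The libraries shared 18 barcodes, of which 1 belonged to a caudal cell, and none was a caudal cell in both. Gata1 could not check the labels within the caudal cells, where it had 2 UMIs in tomPOS and 5 in tomNEG, whereas over all other cells it was at 6.86 CPM (UMIs of the gene per 1000000 spliced UMIs of the same cells) and 29.9 CPM.

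The cells were chosen by their spliced UMIs of T, Nkx1-2, Tbx6, Dll3, Hes7 and the globins, so the values of these genes are a description. A T and an Nkx1-2 signal of the required size met in 190 tomPOS and 209 tomNEG cells, of which 22 and 37 were dropped for the sum of Tbx6, Dll3 and Hes7 and 0 and 4 for globins. The caudal cells held a median of 2 T UMIs in both libraries (1 to 19 and 1 to 16) and a median of 3 Nkx1-2 UMIs (2 to 12 and 2 to 13). Tbx6, which commits cells to paraxial mesoderm, was at 0 in 150 of 168 tomPOS and 148 of 168 tomNEG caudal cells. Globins took a median of 0.0143% of the UMIs in tomPOS and 0.0737% in tomNEG, the latter in a library with more globin throughout.

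Cells just inside and just outside each limit compare as follows. Cells with 1 Nkx1-2 UMI but otherwise alike numbered 102 and 96, and their Cdx1 was at 124 CPM in tomPOS and 160 CPM in tomNEG, beside 201 CPM and 161 CPM in the caudal cells with 2 Nkx1-2 UMIs. Where Nkx1-2 was at 0 (472 and 561 cells), Cdx1 was at 71.3 and 61.1 CPM and Cited1, a gene of presomitic mesoderm, at 588 and 501 CPM. Across the T limit Fgf8 was at 38.5 and 87.3 CPM in the 317 and 266 cells with Nkx1-2 but no T UMI, and at 189 and 314 CPM in caudal cells with 1 T UMI. Across the limit on Tbx6, Dll3 and Hes7 the values ran close. Caudal cells with a sum of 6 or 7 (27 and 24 cells) and cells with 8 or 9 (10 and 15) had Fgf8 at 510 and 703 CPM inside and 478 and 602 CPM outside.

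Apart from the rule genes, most listed caudal epiblast and neuromesodermal markers stood higher in the caudal cells than in all other cells. The list was drawn up with earlier results of these data known, so this is a description. A gene is called raised or lowered where its log2 fold is at least 1 in size (2-fold) and its 95% interval excludes 0 in both libraries. Genes with under 100 UMIs over both cell sets together in either library are left out of the counts of calls. By this rule 285 of 12356 genes (2.31%) were raised in the caudal cells over all other cells of the same library and 628 (5.08%) were lowered. Of the 17 caudal epiblast and neuromesodermal markers, 16 were raised, 2 of them being the rule genes T and Nkx1-2, and none was lowered. The median log2 fold over the 17 was 2.76 in tomPOS and 2.67 in tomNEG, beside -0.04 and -0.03 over all genes compared.

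Fgf8, the FGF ligand that keeps the caudal epiblast undifferentiated, was at 429 CPM in tomPOS and 580 CPM in tomNEG caudal cells, against 47.3 and 62.1 CPM in all other cells. That is a log2 fold of 3.18 (95% interval 3.10 to 3.26) and 3.22 (3.15 to 3.29). Per cell it was uneven, with a median of 3.72 UMIs per 10000 in tomPOS (0 to 20.6) and 5.80 in tomNEG (0 to 22.8), and 24 and 18 cells had none. Its relative Fgf17 was at 154 and 191 CPM against 13.3 and 18.2 CPM, a log2 fold of 3.54 (3.40 to 3.68) and 3.39 (3.26 to 3.51), and 24 and 23 cells had none. Both ligands thus stood over 8-fold above the rest of the embryo in each library but were missing from part of the cells.

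The Cdx genes, caudal homeobox factors, were all 3 raised. Cdx1 was at 238 CPM in tomPOS and 195 CPM in tomNEG caudal cells against 29.6 and 28.5 CPM in other cells (log2 fold 3.01 and 2.77). Cdx2 was at 459 and 490 CPM against 76.2 and 76.6 CPM (2.59 and 2.68). Cdx4 was at 642 and 736 CPM against 94.8 and 115 CPM (2.76 and 2.67). Cdx2 and Cdx4 were found in nearly all cells. Cdx2 was at 0 in 1 cell of each library, Cdx4 in 3 tomPOS and 0 tomNEG cells, and Cdx1 in 9 and 10 cells. With every cell thinned to 10000 UMIs, Cdx1 was found in 83.9% and 76.8% of the cells, beside 77.6% and 85.2% for Fgf8.

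Among genes outside the rule, Epha5, an ephrin receptor, led the ranking by the weaker of the 2 libraries. It was at 372 CPM in tomPOS and 444 CPM in tomNEG caudal cells against 23.8 and 33.2 CPM, a log2 fold of 3.96 (3.87 to 4.05) and 3.74 (3.65 to 3.82). Fgf17, Wnt3a, Fgf8, Evx1os, Rxrg, Tlx2, Etv4, Cdx1, Mnx1, Hoxc4, B230323A14Rik, Pmaip1, Hoxc8 and Tcea3 followed, with log2 folds from 2.68 to 3.60 in both libraries. They include Evx1os, the RNA antisense to the caudal homeobox gene Evx1, at 132 and 145 CPM, and Evx1 itself was at 87.1 and 101 CPM (log2 fold 2.60 and 2.65). Reads of Evx1 and Evx1os may not be separable where they overlap. Homeobox genes such as Tlx2 (30.6 and 34.6 CPM) and Mnx1 (14.2 and 19.3 CPM) were raised at far lower levels, and so was Rxrg, a retinoid X receptor (18.9 and 15.8 CPM).

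Sox2 was the marker that was not called, since its log2 fold over all other cells was 1.29 (1.11 to 1.45) in tomPOS and 0.98 (0.86 to 1.09) in tomNEG. It was at 82.9 CPM in tomPOS and 181 CPM in tomNEG caudal cells, against 34.0 and 92.2 CPM in the other cells, which include the neural tube and brain. The 10 genes with the smallest folds were Cited4, Nppa, Trim10, Tbx1, Mylk3, Asb17, Epor, Art4, Alas2 and Gata1, with 1 to 28 UMIs in the caudal cells of a library. Nppa and Mylk3 are genes of heart muscle, Tbx1 is a factor of the pharyngeal region, and Epor, Alas2 and Gata1 belong to erythroid cells.

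**Figure D1:**
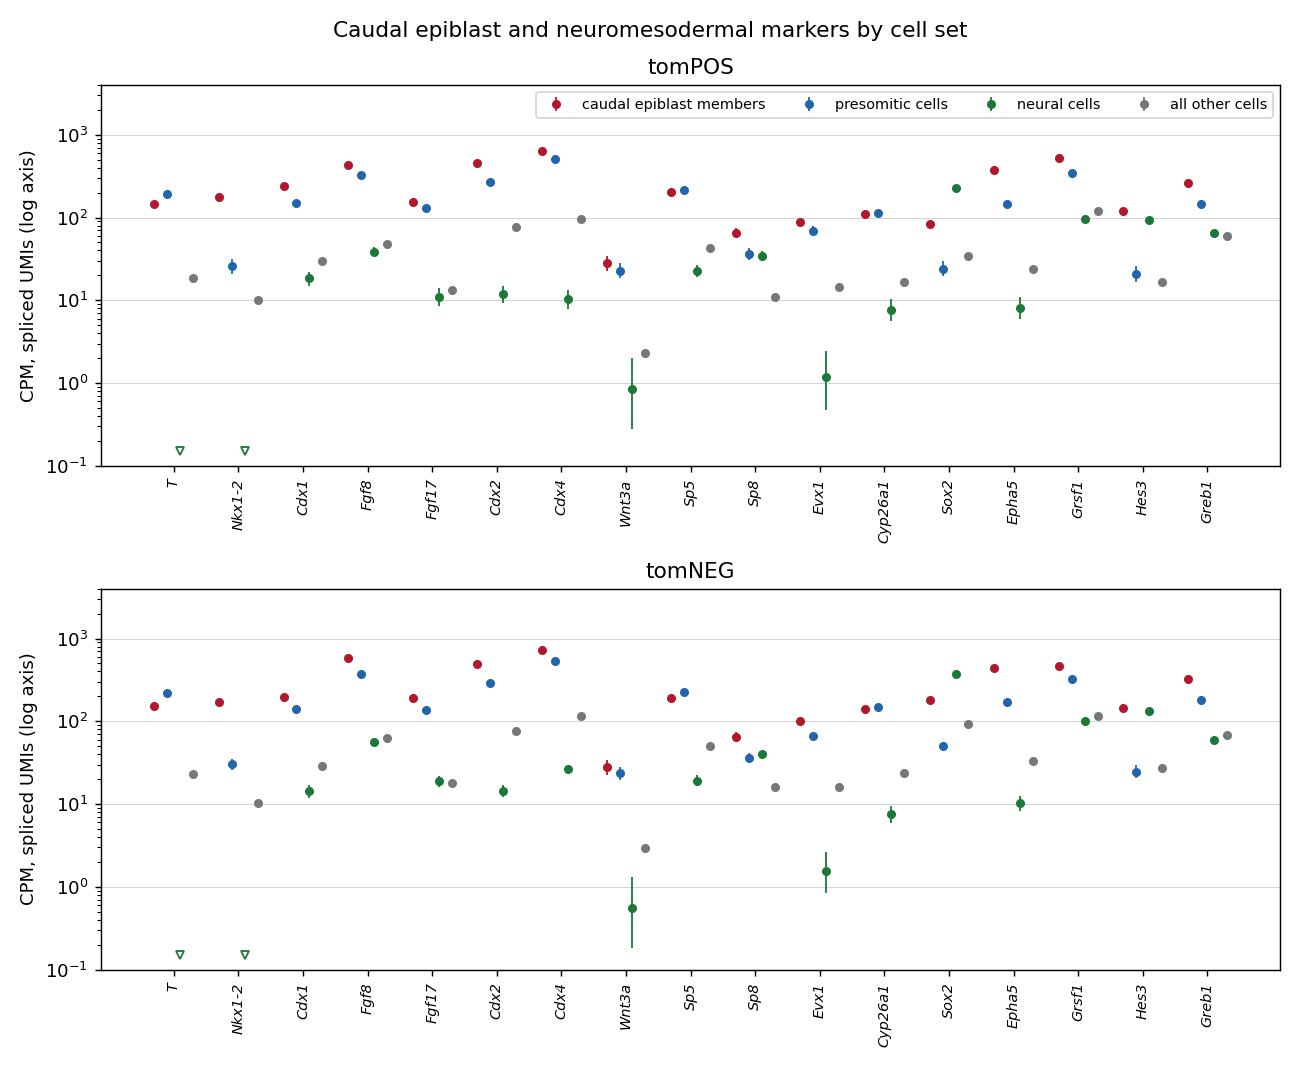
Level of the 17 caudal epiblast and neuromesodermal markers in CPM of spliced UMIs (log axis) in tomPOS (top) and tomNEG (bottom), for caudal epiblast members (the caudal cells), presomitic cells, neural cells and all other cells. Points are sums over cells, bars are exact 95% Poisson intervals and open triangles mark 0 UMIs. Epha5 stands at 372 and 444 CPM in the caudal cells and at 8.15 and 10.2 CPM in neural cells.

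The caudal cells were then compared with presomitic and neural cells. Presomitic cells had at least 8 UMIs of Tbx6, Dll3 and Hes7 together and few globin UMIs (189 tomPOS and 278 tomNEG cells). They include the 22 tomPOS and 37 tomNEG cells dropped above for this sum, apart from any over the globin limit. Neural cells were taken as those with at least 2 Sox2 UMIs, at least 1 Sox1 UMI and none of Otx2, T or Nkx1-2 (306 and 542 cells). The genes that chose each set stay in the counts below, where their calls can follow from the choice. Fewer genes separated the caudal cells from the presomitic cells, over which 38 of 6218 genes (0.611%) were raised and 67 (1.08%) were lowered. Over the neural cells 159 of 6925 genes (2.3%) were raised and 149 (2.15%) were lowered. The sets compared differ in size, so these counts are a description.

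Most caudal markers did not separate the caudal from the presomitic cells, some of which also met the limits on T and Nkx1-2. Of the 17, only Nkx1-2 of the rule, Sox2, Epha5 and Hes3 were raised over presomitic cells in both libraries. Hes3, a repressor of the Hes family found in neural progenitors, was at 120 CPM in tomPOS and 146 CPM in tomNEG caudal cells against 20.8 and 24.7 CPM (log2 fold 2.53 and 2.56). Epha5 was at 144 and 170 CPM in presomitic cells (1.37 and 1.38). Sox2 was at 24.2 and 49.6 CPM there (1.78 and 1.87). Fgf8 (327 and 374 CPM), Fgf17 (131 and 137 CPM), Cdx1 (148 and 142 CPM) and Cdx4 (508 and 536 CPM) were all high in presomitic cells too, with log2 folds between 0.23 and 0.68.

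Genes found in neural cells too were among the others raised over presomitic cells. Of the neural tube markers 3 were compared, and Sox3 and Irx3 were raised. Both were lowered in the caudal cells against neural cells. Sox3, a SoxB1 factor like Sox2, was at 46.2 and 48.7 CPM in caudal and 16.2 and 15.1 CPM in presomitic cells (log2 fold 1.51 and 1.69), and Irx3, an Iroquois factor of the neural plate, at 37.3 and 46.6 CPM against 18 and 17.9 CPM (1.05 and 1.38). Fgfbp3, a secreted FGF-binding protein, was at 68.1 and 44.0 CPM against 12.6 and 12.9 CPM (2.44 and 1.77). Id2 and Nog, an inhibitor of helix-loop-helix factors and a secreted BMP antagonist, were the 2 of 12 BMP and TGF-beta genes raised. Nog was raised over neural cells too. Id2 was at 194 and 201 CPM against 92.5 and 88.8 CPM.

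Mesoderm genes outside the presomitic rule were lowered too. This can follow from the choice of both cell sets where they are expressed along with Tbx6, Dll3 and Hes7, and is a description. All 9 presomitic markers compared were lowered, 3 of them rule genes and the others Msgn1, Dll1, Lfng, Rspo3, Dkk1 and Cited1. Msgn1, a helix-loop-helix factor of the same programme as Tbx6, had 0 UMIs in tomPOS and 1 in tomNEG caudal cells, against 26.0 and 30.1 CPM in presomitic cells. Dll1, the Notch ligand of the presomitic mesoderm, was at 2.23 and 6.16 CPM against 92.5 and 96.9 CPM (log2 fold -5.38 and -3.98). Cited1 was at 152 and 144 CPM against 1086 and 1126 CPM (-2.84 and -2.97). All 5 somite markers compared (Meox1, Tcf15, Foxc2, Aldh1a2 and Pcdh8) were lowered as well. So were Snai1 and Fn1, a repressor and a matrix gene that accompany the passage from epithelium to mesenchyme, as 2 of 11 genes of that list, with Snai1 at 6.12 and 8.5 CPM against 35.0 and 44.6 CPM.

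Over neural cells 14 of the 17 caudal markers were raised, all but Sox2, Hes3 and Sp8, with T, Nkx1-2 and Sox2 fixed by the choice of the neural cells. Hes3 was at 92.5 and 133 CPM in neural cells, with a log2 fold of 0.38 (0.19 to 0.56) in tomPOS and 0.14 (-0.02 to 0.29) in tomNEG, and was thus shared by caudal and neural cells. Sp8 stood at 65.6 and 65.4 CPM in caudal and 34.5 and 39.7 CPM in neural cells. All 9 neural tube markers compared were lowered in the caudal cells, of which Sox1 had chosen the neural cells. Pax6, a factor of the closing neural tube, was at 3.06 and 4.4 CPM against 32.6 and 42.1 CPM (log2 fold -3.41 and -3.26), and Nkx6-2 had 1 and 9 UMIs in the caudal cells against 45.7 and 48.1 CPM.

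Hox genes, which assign positions along the axis in the order of their paralogue number, were a large group among the raised genes. Of 39 Hox genes 28 had enough UMIs for the comparison with all other cells, and 13 were raised (Hoxa7, Hoxa9, Hoxb1, Hoxb3, Hoxb4, Hoxb7, Hoxb8, Hoxb9, Hoxc4, Hoxc5, Hoxc8, Hoxc9 and Hoxd4). Hoxb9 was at 243 CPM in tomPOS and 297 CPM in tomNEG caudal cells against 43.6 and 52.1 CPM (log2 fold 2.48 and 2.51). Hoxb8 was at 257 and 276 CPM against 48.3 and 49.1 CPM (2.41 and 2.49), and Hoxc4 at 106 and 113 CPM against 12.8 and 17 CPM (3.05 and 2.73). The median over the 28 genes was 0.95 in tomPOS and 1.02 in tomNEG.

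The most posterior Hox genes were almost silent in the caudal cells. Hoxa10 had 18 tomPOS and 11 tomNEG UMIs and Hoxa13 had 2 and 0, and both were lowered against the other cells. Hoxb13 had 4 UMIs in each library, Hoxc10 had 0 in both and Hoxd13 had 0 and 1. Against presomitic cells 1 Hox gene was raised and 1 lowered of 16 compared. Hoxa9 was at 145 and 188 CPM in caudal and 56.8 and 83.2 CPM in presomitic cells (log2 fold 1.35 and 1.18), while the anterior gene Hoxb1 was at 106 and 103 CPM against 222 and 219 CPM (-1.06 and -1.09). Against neural cells 12 of 15 were raised, with Hoxa9 at 2.04 and 6.00 CPM there.

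**Figure D2:**
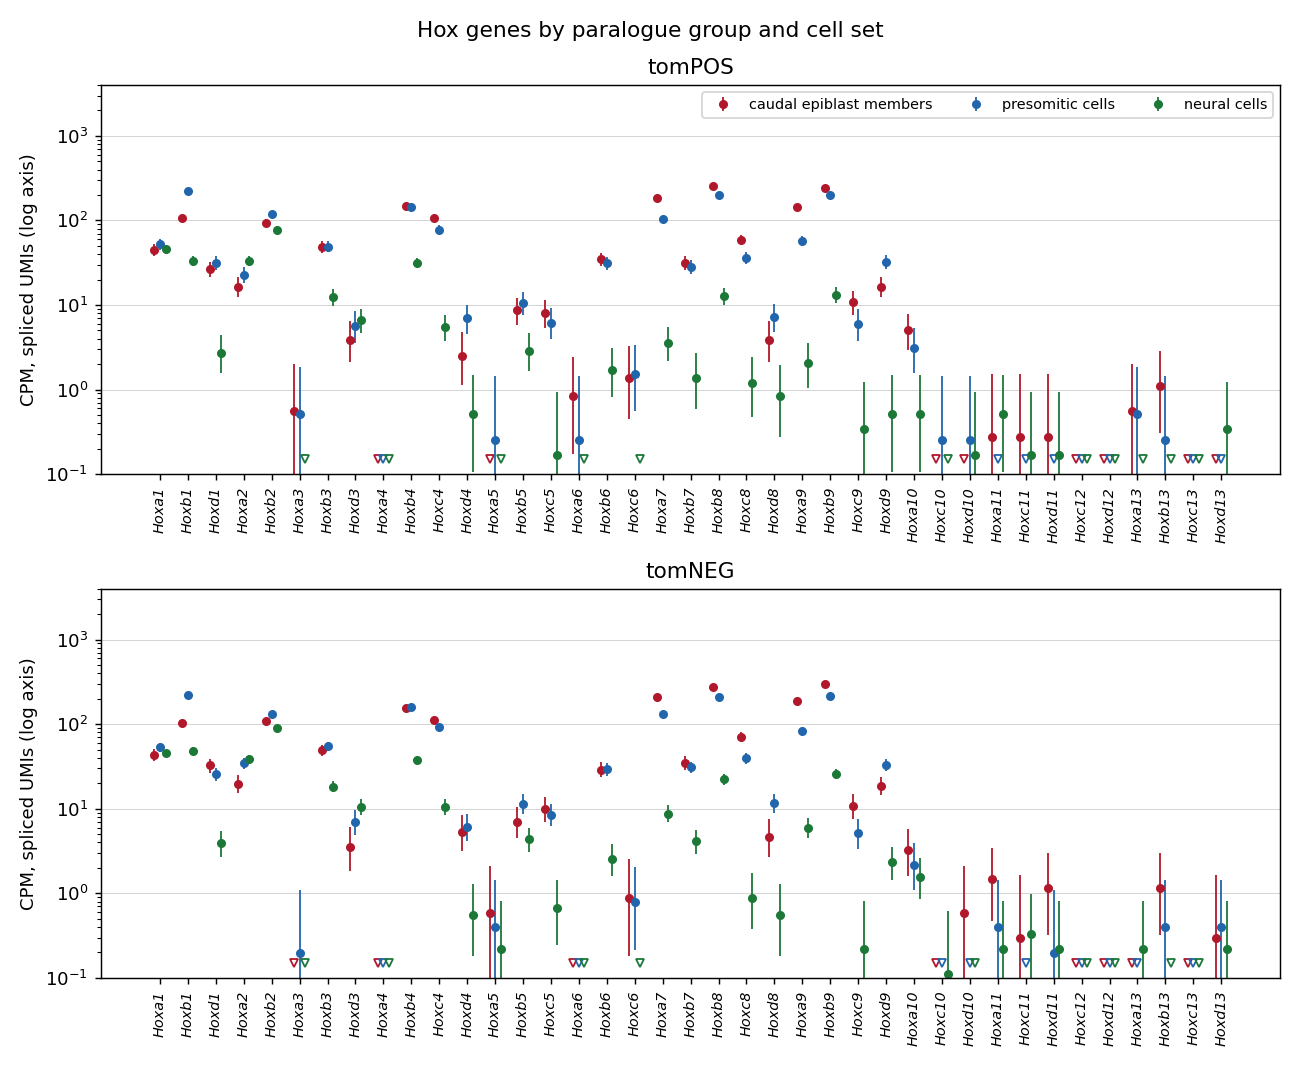
Level of the Hox genes in CPM of spliced UMIs (log axis), ordered by paralogue number, in tomPOS (top) and tomNEG (bottom). Points are sums over the caudal epiblast members, the presomitic and the neural cells, bars are exact 95% Poisson intervals and open triangles mark 0 UMIs. The caudal and presomitic points lie together for most genes up to paralogue group 9, apart from Hoxb1 (106 and 103 against 222 and 219 CPM) and Hoxa9 (145 and 188 against 56.8 and 83.2 CPM).

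FGF ligands and receptors were compared with the other cell sets. Of 8 FGF ligands compared with all other cells, Fgf8, Fgf17, Fgf9 and Fgf18 were raised. Presomitic cells carried a broader set, and 5 of 7 ligands were lowered against them, namely Fgf3, Fgf4, Fgf9, Fgf15 and Fgf18. Fgf4, a ligand of the primitive streak, had 6 tomPOS and 3 tomNEG UMIs in the caudal cells against 28.3 and 23.7 CPM in presomitic cells, and Fgf18 was at 13.6 and 20.2 CPM against 57.3 and 63.5 CPM (log2 fold -2.07 and -1.65). Of the 4 receptors none was raised and Fgfr2 was lowered. With 2.31% of all genes raised, a count of 0 among 4 genes says little about the receptors. Fgfr1, the receptor of the epiblast and mesoderm, was at 48.4 and 46.6 CPM, with a log2 fold of -0.04 (-0.26 to 0.18) and -0.22 (-0.46 to 0.00) over the other cells.

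Some FGF targets were raised over all other cells in both libraries. Of 11 targets and feedback genes 6 were raised over all other cells (Spry4, Dusp4, Etv4, Etv5, Il17rd and Fgfbp3) and none was lowered, with a median log2 fold of 1.35 and 1.33. Etv4, an ETS factor induced by FGF, was at 167 CPM in tomPOS and 174 CPM in tomNEG against 21.2 and 23.9 CPM (log2 fold 2.97 and 2.87). Spry4, an inhibitor of the pathway, was at 28.4 and 31.4 CPM against 6.11 and 6.23 CPM (2.22 and 2.33). Dusp6, a phosphatase that acts on ERK, was at 36.4 and 47.8 CPM with log2 folds of 0.52 and 0.91, and was not called. Over presomitic cells Fgfbp3 was the 1 gene raised of 9 compared and none was lowered, unlike the ligands. Over neural cells 6 of 9 were raised.

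Wnt ligands were few but steep. Of 11 Wnt ligands and R-spondins compared with all other cells, Wnt3a, Wnt5b, Wnt8a and Rspo3 were raised and Wnt1 and Wnt3 were lowered. Wnt3a, the canonical ligand of the tail bud, was at 28.1 CPM in tomPOS and 27.9 CPM in tomNEG against 2.31 and 2.95 CPM (log2 fold 3.60, 3.27 to 3.92, and 3.24, 2.91 to 3.56). Wnt8a, a ligand of the early posterior embryo, was at 13.1 and 7.92 CPM against 1.36 and 1.68 CPM. Wnt5b was at 115 and 138 CPM against 22.4 and 28.2 CPM (2.35 and 2.29). Rspo3, a secreted amplifier of Wnt signals, was at 191 and 251 CPM, above the 58.9 and 54.9 CPM of all other cells but below the 458 and 504 CPM of presomitic cells (log2 fold -1.26 and -1.0).

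On the responding side, Fzd10 and Ptk7 were raised over all other cells and Fzd8, Lgr4 and Ror1 were lowered, out of 13 receptors and co-receptors. Of 16 Wnt targets and antagonists, Axin2, Sp5, Sp8, Tcf7 and Notum were raised and Tcf7l1, Dkk1, Sfrp1 and Sfrp5 were lowered. The raised genes include Axin2 and Notum, feedback inhibitors induced by the pathway, at 53.1 and 51.0 CPM and at 37.3 and 31.1 CPM. Sp5, whose promoter is printed above, was at 202 and 191 CPM in caudal and 212 and 223 CPM in presomitic cells. Lef1, a nuclear partner of beta-catenin, was lower in caudal than in presomitic cells, at 135 and 142 CPM against 345 and 337 CPM (log2 fold -1.36 and -1.25).

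Retinoic acid genes split by their role. Over all other cells Cyp26a1 and Rarg were among the genes raised, and Aldh1a2, Rdh10 and Rarb were lowered. Cyp26a1, which breaks retinoic acid down, was at 110 and 141 CPM against 16.7 and 23.5 CPM (log2 fold 2.71 and 2.59). Aldh1a2 and Rdh10, which make it, were at 18.1 and 19.1 CPM and at 8.07 and 5.86 CPM (log2 folds from -1.65 to -1.05). In presomitic cells Cyp26a1 was as high (112 and 148 CPM, log2 fold -0.03 and -0.07), but Aldh1a2 was at 83.3 and 104 CPM. The receptor Rarg was at 73.7 and 78.3 CPM against 24.3 and 25.5 CPM.

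Notch and clock genes were compared with both references. Against presomitic cells Notch1, Nrarp, Lfng and Dll1 were lowered beside the rule genes Dll3 and Hes7, Hes3 was raised, and 11 genes were compared. Against all other cells Hes3 was the 1 gene of 13 raised apart from Dll3 and Hes7, and none was lowered. Of 15 BMP and TGF-beta genes Gdf11, a ligand that times the trunk-to-tail passage, and Nog were raised and Bmp2 and Smad6 were lowered. Gdf11 was at 26.7 and 27.3 CPM against 11.7 and 11.1 CPM.

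Genes of earlier stages ranged from absent to plainly present. Nanog and Zfp42, genes of naive pluripotency, had 0 UMIs in the caudal cells of both libraries, Pou5f1 had 3 in each, and Fgf5, a gene of the early epiblast, had 0 and 1. Of 10 epiblast and pluripotency genes with enough UMIs none was raised and Otx2 was lowered, with a median log2 fold of 0.01 and -0.16. Lin28a, an RNA-binding regulator of early development, was at 244 and 239 CPM, the zinc finger factor Sall4 at 141 and 209 CPM and the DNA methyltransferase Dnmt3b at 114 and 109 CPM. Epcam, an epithelial adhesion gene, was at 51.5 and 44.3 CPM and was raised over neural cells. Streak and mesendoderm genes were hardly found either, with Eomes at 0 and 1 UMI, Mixl1 at 13 and 5 and Mesp1 at 15 and 9. Of 15 cadherins and genes of the epithelial to mesenchymal passage none was raised over all other cells and Snai1, Snai2 and Vim were lowered. Cdh1, the epithelial cadherin, was at 7.79 and 7.92 CPM (log2 fold 0.24, -0.36 to 0.78, and -0.12, -0.73 to 0.42) and Cdh2, the cadherin of neural and mesodermal cells, at 71.5 and 68.9 CPM (1.11 and 0.91).

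Markers of neighbouring tissues were checked as sums over each list. Notochord markers (9 genes) summed to 158 CPM in tomPOS and 136 CPM in tomNEG caudal cells, with a median of 1 UMI per cell, against 2468 and 2288 CPM in the 53 and 54 notochord cells. Those were the cells with T, with at least 2 UMIs of Noto and Shh and with no Nkx1-2. Noto and Shh are in the summed list, so part of this contrast follows from the choice. Hindgut markers summed to 73.7 and 99.4 CPM, allantois markers to 80.7 and 75.3 CPM and blood and endothelial markers to 88.7 and 93.2 CPM. Each of these had medians of 0 or 1 UMI per cell. In presomitic cells the same lists summed to 51.4 and 70.7, 57.3 and 33.8, and 68.1 and 50.2 CPM. In neural cells they summed to 66.4 and 69.6, 22.4 and 28.2, and 51.9 and 51.8 CPM. In all other cells they summed to 126 and 183, 268 and 191, and 500 and 1071 CPM. Pitx1 was raised over presomitic and neural cells. Hand1, Kdr and Cldn6 were raised and Foxa2 was lowered against neural cells. Single cells reached 126 hindgut, 50 allantois and 78 blood and endothelial UMIs. Noto, the homeobox gene that defines the notochord, had 3 UMIs in tomPOS and 0 in tomNEG. Surface ectoderm markers summed to 260 and 192 CPM, of which Krt18 alone made 192 and 152 CPM. Their sums were 135 and 108 CPM in presomitic, 85.4 and 100 CPM in neural and 573 and 515 CPM in all other cells. The 12 presomitic markers, which include the limited genes, summed to 496 and 577 CPM against 2414 and 2629 CPM in presomitic cells. Doublets and free RNA can add such transcripts, and their part was not tested.

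Sox2 was not in the rule and shows how many of the cells carried the second gene of the neuromesodermal pair. To keep depth from deciding detection, each cell was thinned to 10000 UMIs, which left out 7 tomPOS and 13 tomNEG cells that were shallower. Sox2 was then found in 81 of 161 tomPOS cells (50.3%, 42.3% to 58.3%) and in 107 of 155 tomNEG cells (69.0%, 61.1% to 76.2%). Without thinning these shares were 64.9% and 85.1%. Among globin-high cells, which should lack Sox2 and had medians of 22036 and 19157 UMIs, 1.55% and 7.17% held a Sox2 UMI after thinning, and among presomitic cells 13.7% and 22.8%. The part of free RNA and doublets in these shares was not tested.

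T and Sox2 were found together in 66 of 161 tomPOS cells (41.0%, 33.3% to 49.0%) and in 77 of 155 tomNEG cells (49.7%, 41.6% to 57.8%) after thinning, which also drops T from some cells. T without Sox2 was found in 64 cells (39.8%) and 34 cells (21.9%), and Sox2 without T in 15 (9.32%) and 30 (19.4%). Sox2 was seldom found with Tbx6, in 4 and 5 cells. Of the other neural genes, Hes3 was found in 57.1% and 60.0% of the caudal cells and Sox3 in 37.3% and 36.8%. Sox1 and Pax6 were each found in only 1.86% (0.39% to 5.35%) and 3.87% (1.43% to 8.23%), beside 0.81% to 1.37% of globin-high cells. Msgn1 was found in 0 of 161 and 0 of 155 cells, which allows a share of up to 1.86% and 1.94% of cells with a UMI at this depth and does not limit the share of cells that express it. Without thinning 1 tomNEG cell held a Msgn1 UMI.

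**Figure D3:**
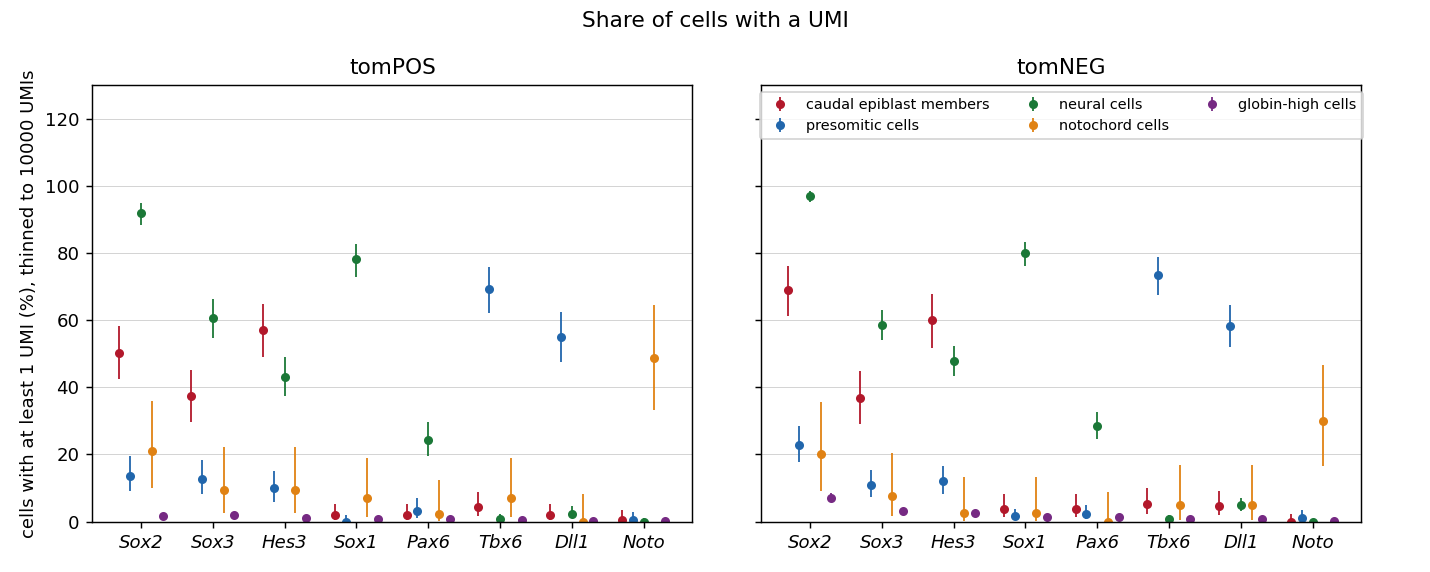
Share of cells (%) with at least 1 UMI of each gene after thinning every cell to 10000 spliced UMIs, in tomPOS (left) and tomNEG (right). Colours mark caudal epiblast members, presomitic, neural, notochord and globin-high cells, and bars are exact 95% binomial intervals. The caudal cells lie between presomitic and neural cells for Sox2 (50.3% and 69.0%), by which the neural cells were chosen, and above the neural cells for Hes3 (57.1% and 60.0% against 43.1% and 47.9%).

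The caudal cells were also split by whether a Sox2 UMI was found after thinning, at equal UMIs per cell. None was found in 80 tomPOS and 48 tomNEG cells, called cells without Sox2 here. Before thinning only 59 and 25 caudal cells had none, so some of the cells without Sox2 held Sox2 UMIs. The split was read for a chosen list of genes, not for all genes, and some of these moved the same way in both libraries. Fgfbp3 was at 104 CPM with and 41.2 CPM without Sox2 in tomPOS and at 51.4 and 22.9 CPM in tomNEG (log2 fold 1.33 and 1.17). Crabp2, a retinoic acid carrier of neural cells, was at 447 and 266 CPM and at 348 and 217 CPM (0.75 and 0.68). Ptn, a secreted growth factor, was also higher with Sox2 (0.57 and 1.32). Each of these intervals excludes 0. For the neural genes Hes3 (0.44, -0.003 to 0.89, and 0.86, 0.39 to 1.36) and Sox3 (0.51, -0.18 to 1.20, and 1.29, 0.35 to 2.37) it did so in tomNEG only. Irx3, also a neural gene, had log2 folds of -0.66 (-1.60 to 0.25) and -0.05 (-0.86 to 0.82). Crabp1, which was lowered in caudal against neural cells, was lower with Sox2 in tomPOS (-0.40, -0.66 to -0.14). Not all neural genes of the list thus rose with Sox2.

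Bmp4, Pitx1 and keratin genes stood in the other direction. Bmp4, a BMP ligand of the posterior and extraembryonic mesoderm, was at 17.3 CPM with and 47.5 CPM without Sox2 in tomPOS and at 20.6 and 81.2 CPM in tomNEG (log2 fold -1.46 and -1.98). Pitx1, a homeobox gene of the allantois and hindlimb field, was at 8.64 and 36.2 CPM and at 1.87 and 45.8 CPM (-2.07 and -4.62). The keratins Krt8 (-1.03 and -0.66) and Krt18 (-0.67 and -0.92), Tlx2 (-0.98 and -1.16) and Lef1 (-0.43 and -0.60) were lower with Sox2 as well. Epha5 had log2 folds of -0.06 (-0.29 to 0.17) and 0.12 (-0.11 to 0.35), and Fgf8 had -0.08 (-0.29 to 0.14) in tomPOS and 0.25 (0.04 to 0.46) in tomNEG. The cells with no Sox2 UMI after thinning had more UMIs before thinning in tomNEG (medians 22148.5 and 17323) but hardly in tomPOS (19091 and 18638). Some of them held Sox2 UMIs before thinning. The part of depth or of cells of other types was not tested.

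T is a gene of the rule, so the caudal cells by their T level are a description that supports nothing. After thinning, 94 tomPOS and 98 tomNEG cells held 0 or 1 T UMI, 51 and 34 held 2 or 3, and 16 and 23 held 4 or more. Fgf8 was at 284, 696 and 744 CPM over these classes in tomPOS and at 447, 759 and 1091 CPM in tomNEG. Cyp26a1 was at 51.1, 145 and 394 CPM and at 82.7, 185 and 291 CPM. Rspo3 was at 104, 324 and 419 CPM and at 205, 318 and 478 CPM. These 3 genes were higher in the upper classes than in the lowest in both libraries. Comparing cells with 2 or more T UMIs against those with 0 or 1, the log2 fold was 1.32 and 1.00 for Fgf8, 2.00 and 1.46 for Cyp26a1, 1.69 and 1.5 for Wnt3a and 0.82 and 0.94 for Fgf17.

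Other genes were lower in the upper T classes. Hes3 was at 132, 84.3 and 68.8 CPM in tomPOS and at 170, 159 and 47.8 CPM in tomNEG over the T classes. Fgfbp3 was at 35.8 CPM with 2 or more T UMIs and 98.9 CPM with fewer in tomPOS, and at 14.0 and 59.2 CPM in tomNEG (log2 fold -1.47 and -2.08). Irx3 (-1.36 and -1.92), Ptn (-0.48 and -0.71) and Crabp2 (-0.78 and -0.37) went the same way, but Sox3 had log2 folds of 0.04 (-0.65 to 0.72) and -0.78 (-1.64 to 0.02). Sox2 was at 97.9, 76.5 and 62.5 CPM and at 191, 182 and 117 CPM, and for cells with 2 or more T UMIs its interval includes 0 in both libraries (-0.95 to 0.10 and -0.67 to 0.08). Cdx1 and Nkx1-2 had log2 folds between -0.13 and 0.24 and intervals that include 0. Cells with 0 or 1 T UMI were deeper before thinning (medians 21024 and 19345) than those with more (16921 and 16059). Every caudal cell held T before thinning, and the 31 tomPOS and 44 tomNEG cells left with none had medians of 25660 and 22682.5 UMIs. The part of depth was not tested.

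**Figure D4:**
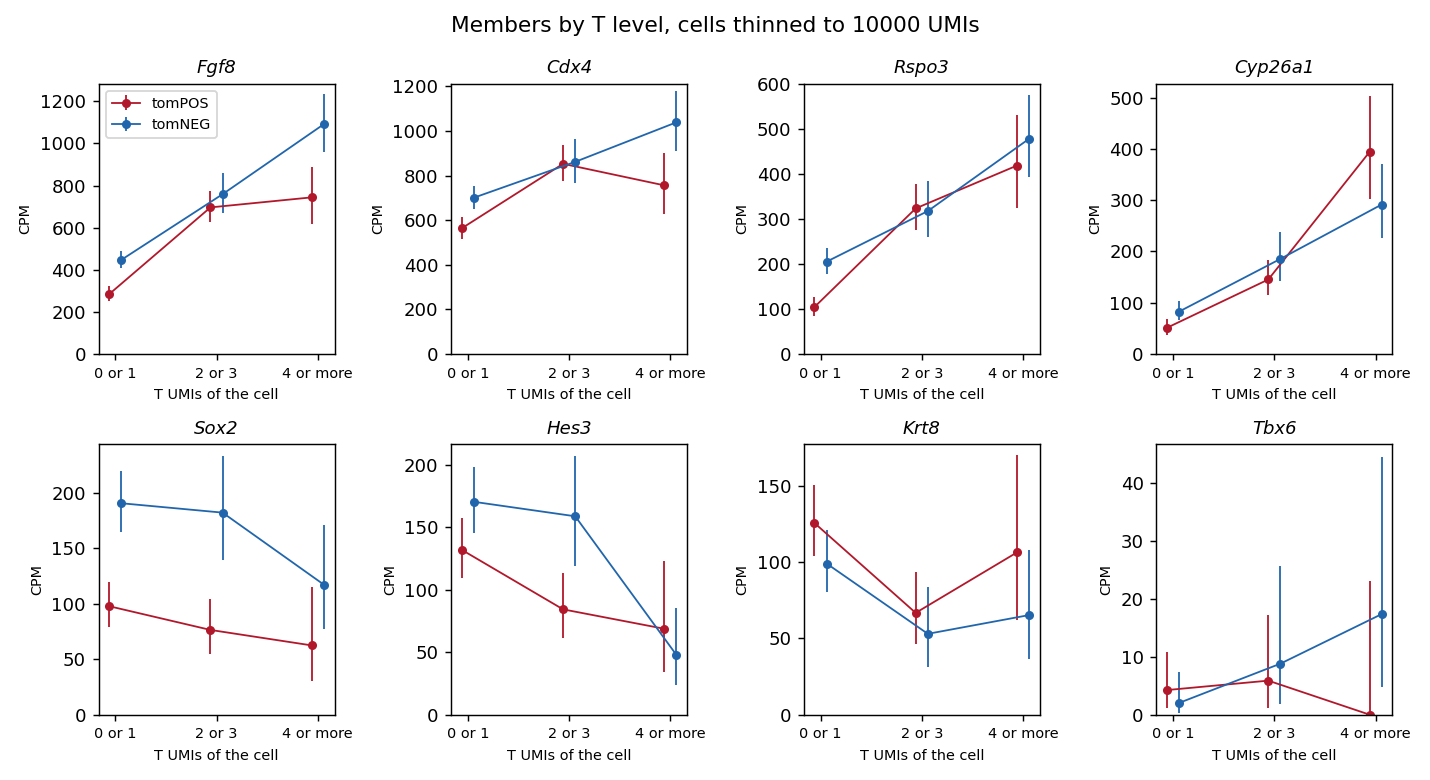
Level of 8 genes, as a description, (CPM) in the caudal cells with 0 or 1, 2 or 3, and 4 or more T UMIs after thinning each cell to 10000 UMIs, with tomPOS and tomNEG as separate lines. Points are sums over 94, 51 and 16 tomPOS and 98, 34 and 23 tomNEG cells, and bars are exact 95% Poisson intervals. Fgf8, Rspo3 and Cyp26a1 climb in both libraries, whereas Hes3 falls from 132 to 68.8 CPM and from 170 to 47.8 CPM.

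The comparison between the libraries took the 6161 genes whose UMIs in the caudal cells reached 100 over both libraries together. Of these, 10 (0.162%) were higher and 37 (0.601%) lower in tomPOS by at least 2-fold with an interval that excludes 0. Among the lists of signalling and patterning genes these calls included Spry1 of the FGF targets and Wnt6 of the Wnt ligands. Of the 17 caudal markers Sox2 was the 1 that was called, with a log2 fold of tomPOS over tomNEG of -1.13 (-1.33 to -0.93). Among the others were T at 144 and 154 CPM and Nkx1-2 at 178 and 169 CPM, which the rule selected, and Cdx1 at 238 and 195 CPM.

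Sox2 was lower in tomPOS in other cells too. In presomitic cells it was at 24.2 CPM in tomPOS and 49.6 CPM in tomNEG (log2 fold -1.04, -1.39 to -0.69). In all other cells it was at 34.0 and 92.2 CPM (-1.44, -1.48 to -1.39). Neural cells made up 3.41% of the tomPOS and 5.86% of the tomNEG library, and the part of this in that fold was not tested. In neural cells, which were chosen by Sox2, the log2 fold was -0.71. The fold in caudal cells minus that in neural cells was -0.42 (-0.64 to -0.20), a difference that the choice of neural cells by Sox2 can shift. Minus the fold in presomitic cells it was -0.09 (-0.49 to 0.30), and minus that in all other cells 0.31 (0.11 to 0.51). Spry1, an FGF feedback gene, was at 13.1 CPM in tomPOS and 31.4 CPM in tomNEG caudal cells (log2 fold -1.26, -1.79 to -0.75), with -0.84 in presomitic and -1.35 in neural cells. Fgf8 was lower in tomPOS by less than the 2-fold limit (log2 fold -0.44), beside -0.19 in presomitic and -0.58 in neural cells.

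Most of the largest differences were shared with the other cell sets and belong to imprinted and sex-linked genes. Xist, the RNA that silences an X chromosome in female cells, had 3 UMIs in 1 tomPOS cell and 990 in 89 tomNEG cells. The imprinted genes Cdkn1c (2 and 649 UMIs), Grb10 (4.45 and 276 CPM) and Phlda2 (6.95 and 204 CPM) were lower in tomPOS, with log2 folds of -8.42, -5.95 and -4.87. Their log2 folds in presomitic cells were -6.41, -4.84 and -3.32. Peg3 (423 and 169 CPM), Impact (114 and 42.5 CPM) and Peg10 (90.7 and 34.9 CPM), also imprinted, were higher in tomPOS (1.32, 1.43 and 1.38), as they were in presomitic cells (1.14, 1.53 and 1.26). Erdr1 was higher at 226 and 79.7 CPM, and the Y-linked Eif2s3y at 50.1 and 24.0 CPM.

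A pair of genes higher in tomPOS caudal cells did not differ as much elsewhere. Wnt6, a ligand of surface ectoderm and early mesoderm, was at 52.0 CPM in tomPOS and 21.4 CPM in tomNEG caudal cells (log2 fold 1.28, 0.88 to 1.69), against 21.1 and 15.1 CPM in presomitic cells (0.48) and 5.94 and 5.22 CPM in neural cells (0.19). The fold in caudal cells exceeded that in presomitic cells by 0.80 (0.21 to 1.40) and that in neural cells by 1.10 (0.35 to 1.84). Jade3, a chromatin gene on the X chromosome, was at 22.5 and 9.97 CPM in caudal cells (1.18, 0.58 to 1.80) and at 16.2 and 15.3 CPM in presomitic cells (0.08). Its fold exceeded that of presomitic cells by 1.10 (0.35 to 1.85). These intervals have no replicate behind them and were read after the genes had been ranked on the caudal cells.

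The other large differences came from a few cells. Ttn, Actc1, Myl7, Tnnt2 and Myl4, genes of heart muscle, summed to 189 UMIs in tomPOS and 1580 UMIs in tomNEG caudal cells, with log2 folds between -4.56 and -2.62. No tomPOS cell held more than 15 of these UMIs, while 4 tomNEG cells held at least 20 and the highest of them 1085, and Scrublet had called none of the 4. Ttr, a gene of visceral endoderm and its yolk sac derivatives, had 5 UMIs in tomPOS and 234 in tomNEG, of which 221 (94.4%) lay in 1 cell, which Scrublet had called a doublet. Without the 4 heart-rich cells the heart genes summed to 35.1 CPM in tomNEG, against 463 CPM with them and 52.6 CPM in tomPOS. Without all 5 cells the log2 folds were 0.24 for Actc1, 0.88 for Myl7, 0.29 for Tnnt2, 1.36 for Myl4, -0.14 for Ttn and -1.41 for Ttr, and 25 genes were lower in tomPOS in place of 37. The folds of the 5 heart genes thus rest on a few tomNEG cells that meet the rule. That of Ttr shrank but stayed below 0, on 5 tomPOS UMIs. Ttr was also lower in tomPOS in presomitic (log2 fold -1.95) and all other cells (-2.24), but not in neural cells (0.61).

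**Figure D5:**
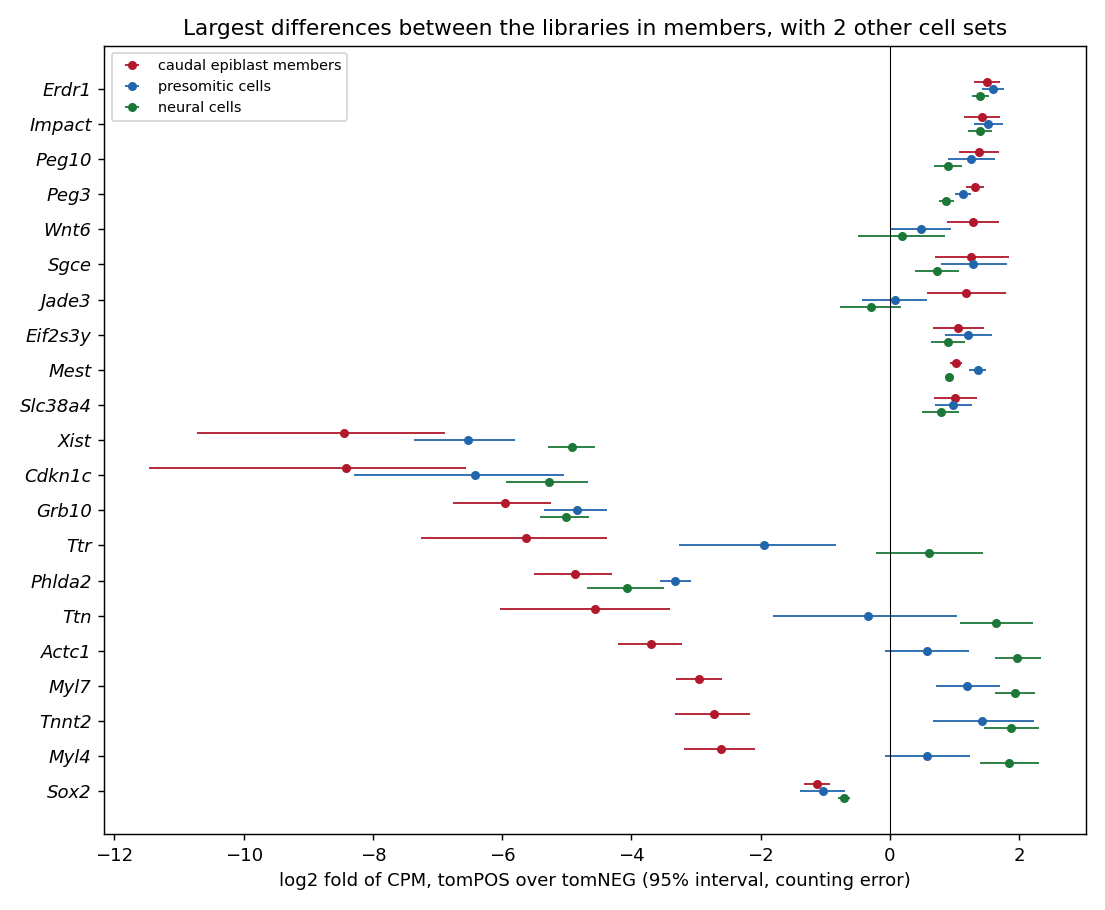
Log2 fold of CPM, tomPOS over tomNEG, for the 10 genes per direction with the largest folds in the caudal epiblast members and for Sox2, with the same fold in presomitic and neural cells beside it. Bars are exact 95% intervals that cover counting error only. The imprinted genes and Xist lie on the same side of 0 in all 3 cell sets, while Actc1, Myl7, Tnnt2 and Myl4 are below 0 in the caudal cells and above 0 in the other sets.

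Unspliced UMIs were not used by the rule and serve as another reading of the same cells. They made up 13.2% of all UMIs in tomPOS and 14.0% in tomNEG caudal cells. Epha5 was mostly unspliced, at 1580 unspliced and 1338 spliced UMIs in tomPOS (54.1%, 52.3% to 56.0%) and 1962 and 1513 in tomNEG (56.5%, 54.8% to 58.1%), and over all other cells its unspliced UMIs had a log2 fold of 3.84 (3.76 to 3.92) and 3.62 (3.54 to 3.69). Wnt3a (55.5% and 58.5%) and Lef1 (53.1% and 54.0%) were alike in this. The shares were close to these in all other cells, so they are not particular to the caudal cells. There they were 56.0% and 57.3% for Epha5, 58.0% and 57.7% for Wnt3a and 53.8% and 56.1% for Lef1. The unspliced folds of Wnt3a were 3.44 and 3.22, of Fgf17 3.60 and 3.19, of Hoxc4 2.97 and 2.81 and of Hoxa9 2.38 and 2.49.

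For compact genes this reading was thin. T had 8 and 15 unspliced UMIs, with a log2 fold over all other cells of 2.25 (0.98 to 3.30) and 3.06 (2.16 to 3.87), and Fgf8 had 20 and 31, with 2.93 (2.17 to 3.63) and 2.99 (2.39 to 3.55). Hes7, whose spliced UMIs the rule limits, had 50 and 42 unspliced UMIs at a log2 fold of 3.23 and 2.50 over all other cells. Its spliced UMIs were raised over all other cells too. Against presomitic cells its unspliced log2 fold was -0.78 and -0.83. Nkx1-2 had 1 and 0 unspliced UMIs, and Sox2, a gene without introns, had 0 in both libraries. The unspliced folds of Cdx1 were 2.77 and 2.77 over all other cells, while Cdx4 had 5 and 9 unspliced UMIs. The cells were chosen by spliced T, so raised unspliced T can follow from the choice and is a description. Against presomitic cells its unspliced log2 fold was -1.17 (-2.57 to 0.09) and -0.30 (-1.31 to 0.65). The unspliced layer therefore adds a reading for FGF, Cdx and Hox genes and none for Nkx1-2 or Sox2.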

How the data were processed

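Whole-embryo cells of 6 pooled chimaeras were sorted by tdTomato and sequenced as 2 droplet libraries. Reads were mapped to mm10 by the authors (Cell Ranger 3.0.2, per the submitters' processing notes), cells were called with emptyDrops, and velocyto assigned molecules to a spliced or an unspliced layer. The deposited tables hold whole-number UMI counts per gene and cell (18233 cells, 29453 genes), used here as deposited, and the percentage of each cell's UMIs on mitochondrial genes, as the authors computed it.

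The members and gene lists were chosen with earlier results of these data known. Spliced counts were summed per cell set and library and divided by the set's total (CPM). Folds have exact conditional binomial 95% intervals, percentages exact Clopper-Pearson ones. With 1 library per group these cover counting error only, and no p-value is given. Named genes were the 15 largest and 10 smallest folds over all other cells, 10 in each direction between libraries, and list members. The fold code was tested on simulated data. Detection was thinned to 10000 UMIs. Scrublet (scanpy 1.11.5) calls were kept, and left out as an alternative. Promoters came from RefSeq (GRCm38.p6). Analyses used Python 3.11.15, numpy 2.4.6, scipy 1.17.1 and pandas 2.3.3. The result for 1 listed gene is not reported here.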

Additional observations from a re-analysis of the deposited data

Results flagged for a closer look

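Each value here is the difference between the libraries (tomPOS minus tomNEG) in a log2 fold of the caudal cells over another cell set. A named gene was taken where the 95% intervals of the fold lay on opposite sides of 0 in the 2 libraries. With 1 library each, the differences were not tested.

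Over all other cells, Wnt6 differed by 1.18 (0.34 in tomPOS and -0.84 in tomNEG) and the imprinted gene Plagl1 by -1.01 (-0.45 and 0.56). Over presomitic cells, Shh, the signal of notochord and floor plate, differed by 5.17 (1.92 and -3.25), on 14 and 3 UMIs in the caudal and 4 and 42 UMIs in the presomitic cells, fewer than the 100 asked of genes in the counts of calls.

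Over neural cells, Fgfbp3 differed by 1.09 (0.27 and -0.83) and Cdkn1c, an imprinted inhibitor of the cell cycle, by -3.15 (-2.81 and 0.34). The heart muscle genes differed by -6.20 for Ttn (-3.09 and 3.11), -5.66 for Actc1 (-1.89 and 3.77), -4.88 for Myl7 (-1.22 and 3.66), -4.60 for Tnnt2 (-1.71 and 2.89) and -4.46 for Myl4 (-1.34 and 3.12), and Ttr differed by -6.24 (-1.72 and 4.51). A few cells hold most of these UMIs on both sides, since 1 tomNEG caudal cell held 1085 UMIs of the 5 heart genes and 1 tomPOS neural cell held 573.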

How the results depend on the processing

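With 1 library per group no replicate could be left out, and depth limits genes with few UMIs. No paired analysis was possible because each group has 1 library. The share of caudal cells in tomPOS and tomNEG was 3.01% and 2.85% with at least 1 Nkx1-2 UMI, 1.18% and 1.16% with at least 3, 1.19% and 1.08% with a limit of 4 on the sum of Tbx6, Dll3 and Hes7, and 1.07% and 0.912% with the rule applied to thinned cells. With spliced and unspliced UMIs together, 62 genes were raised over presomitic and 265 lowered against neural cells, and 17 were higher in tomPOS. With no minimum of UMIs, 120 were raised and 161 lowered against presomitic cells, 408 and 379 against neural cells, and 127 and 214 in tomPOS against tomNEG. With at least 3 Nkx1-2 UMIs, 24 were lower in tomPOS. Sox2 was found in 64.9% and 85.1% of cells without thinning, 33.3% and 57.2% at 5000 UMIs, and 26.7% and 47.7% with at least 2 UMIs. Unspliced UMIs made up 13.1% and 14.1% without the Scrublet calls. The log2 folds of tomPOS over tomNEG that reversed were Actc1 (0.047), Myl7 (0.69) and Myl4 (0.74) with at least 3 Nkx1-2 UMIs, and Actc1 (0.24), Myl7 (0.88), Tnnt2 (0.29) and Myl4 (1.36) without the 5 tomNEG cells rich in heart genes or Ttr, an alternative chosen after seeing the data. Except for the removal of those cells, the cause was not tested. Of the values for single genes, 454 stayed within their interval, 28 moved and 7 reversed.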
